A study of Gallus gallus with 4 samples.

Results

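Distal HIF1α-DNA binding complexes on the larger chicken chromosomes were taken from the deposited CUT&RUN peak list as the peaks on chromosomes 1 to 10 whose closest transcription start site (TSS) lay over 10000 and up to 100000 bp away. This rule selected 3335 of the 8375 listed peaks (39.8%, Wilson 95% confidence interval 38.8 to 40.9) and 54.3% of the 6141 peaks on these chromosomes. Chromosomes 1 to 10 ended between 20.9 and 197 Mb, taking the end of the last peak as the chromosome end, whereas the other numbered chromosomes in the list ended at 20.4 Mb or before. Chromosome Z, with a last peak at 82.5 Mb, is larger than most of the 10 and was not included by the rule. The rule used position alone, and pileup, length and fold enrichment took no part in choosing members. The distances, the nearest genes and the gaps between members depend on the rule and are a description.

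The libraries were made from primary lens cells of White Leghorn chick embryos at embryonic day 10, grown on laminin and held for 4 h in 1 mM dimethyloxalylglycine (DMOG), an inhibitor of the prolyl hydroxylases that mark HIF1α for degradation. Each of 2 cell pools was split between an antibody against HIF1α and a control IgG, giving 2 libraries of each kind. Every library received DMOG, so the contrast behind each peak is HIF1α antibody against IgG in treated cells. The authors pooled the replicate libraries before peak calling, so each peak carries 1 value with no replicate error, the depth of each library is unknown, and intervals and tests given here cover counting error over peaks only. Neighbouring peaks are not independent, and no expression was measured in the list, so the lens identity of the cells could not be checked with marker genes.

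HIF1α is the oxygen-regulated subunit of a transcription factor that pairs with ARNT and binds short motifs in promoters and in enhancers. An enhancer can lie far from the gene it controls and may skip the closest gene, so the nearest gene named for a distal peak is an address and not a target. In CUT&RUN a nuclease tethered to the antibody cuts out the bound DNA in intact cells, and the control IgG shows where the nuclease cuts without a specific antibody. The lens has no blood supply and is a hypoxic tissue, in which HIF1α takes part in the removal of organelles from maturing fiber cells.

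Most distal complexes were low and short. The pileup, meaning how many HIF1α fragments covered the peak summit, had a median of 9 (95% confidence interval of the median 9 to 9), quartiles of 8 and 10 and a range of 7 to 1772. A pileup of 7 to 9 fragments was found at 2066 peaks (61.9%, 95% confidence interval 60.3 to 63.6). The remaining 1269 peaks (38.1%, 95% confidence interval 36.4 to 39.7) reached 10 fragments, beside 41.1% of all listed peaks. The median length was 134 bp (95% confidence interval 133 to 136), with quartiles of 117 and 164 bp and a range of 105 to 949 bp. A length over 150 bp was found at 1157 peaks (34.7%, 95% confidence interval 33.1 to 36.3), beside 37.6% of all listed peaks. Thus the typical member was 9 fragments high over a stretch shorter than 150 bp.

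Fold enrichment over IgG, a ratio of pileup to background with 1 added to each, centred on 3.92 (95% confidence interval of the median 3.92 to 3.97), with extremes of 1.29 and 97.1. The background at each peak, computed from the pileup and the fold enrichment, was at its floor of 1.30 fragments for 1759 members (52.7%, 95% confidence interval 51.0 to 54.4), which means that local IgG coverage did not exceed the genome-wide level there. Of the 3335 members, 1781 (53.4%) had a −log10 q of at least 2 and 824 (24.7%) of at least 3. The highest q among members was 0.0484. Both a pileup of 7 to 9 and a background at the floor were found at 1249 members (37.5%, 95% confidence interval 35.8 to 39.1). Over all 8375 listed peaks the median fold enrichment was also 3.92. The median −log10 q was 2.28 and the median background 1.30 fragments, both among members and over all listed peaks. Weak enrichment was thus not particular to distal peaks. Shares over all listed peaks are not given for the counts in this paragraph.

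A background over 3 times the floor, called high IgG background here, was found at 149 distal peaks (4.47%, 95% confidence interval 3.82 to 5.22), beside 7.94% of all listed peaks. These 149 peaks were nearest to 100 gene symbols and had a median pileup of 58 (95% confidence interval 53 to 68), a median length of 171 bp and a median fold enrichment of 2.31. The other 3186 members had a median pileup of 9, a median length of 133 bp and a median fold enrichment of 3.97. Tall peaks were mostly of the first kind, since 91 of the 94 members with a pileup of 50 or more had high IgG background. The 3 exceptions were nearest to ADAM33, VTG2 and LINGO1. The same count over all listed peaks is not given, so this link is not shown to be particular to distal peaks. All 51 members with a fold enrichment under 2 had high IgG background. The q cutoff fixes this, since over a lower background so small a ratio would mean too few fragments for a call. The lowest fold enrichment among the other 3186 members was 2.86.

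**Figure D1:**
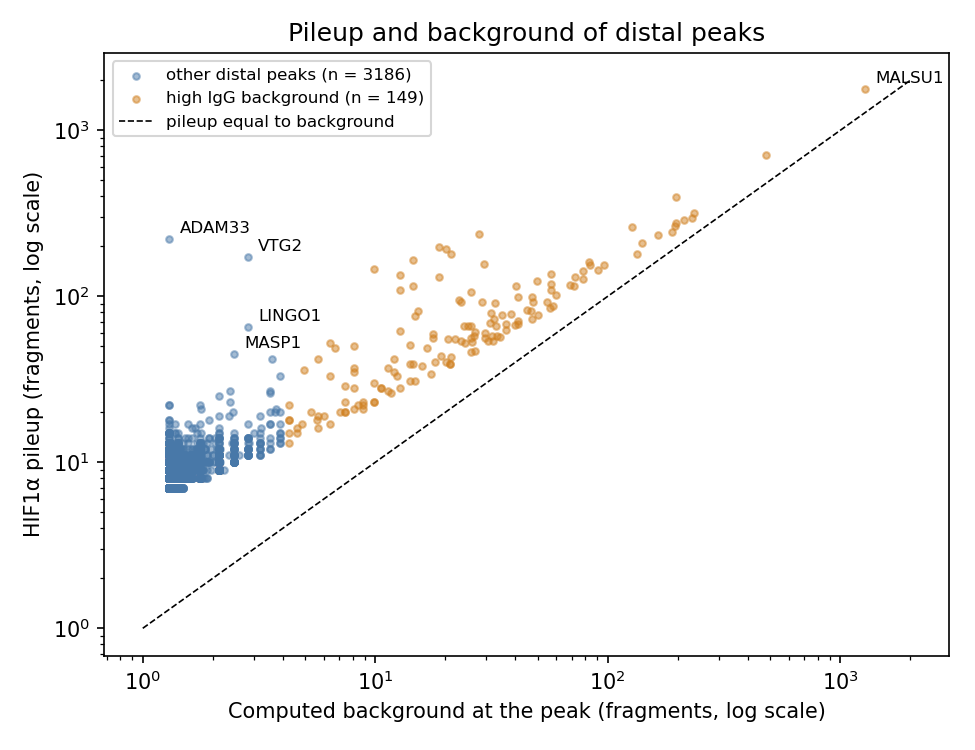
HIF1α pileup against computed background for each distal peak, both in fragments on log axes, with the 149 peaks of high IgG background in orange and the other 3186 in blue. The blue peaks crowd between 7 and 14 fragments at the left, the orange peaks follow the dashed line of equal pileup and background, and ADAM33 and VTG2 stand far above it.

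Taller members were also longer. The median length was 127 bp at a pileup of 7 (479 peaks), 132 bp at 9 (820 peaks), 139.5 bp at 10 to 14 (1060 peaks), 151 bp at 15 to 49 (115 peaks) and 266 bp at 100 or more (42 peaks). High IgG background was found at 0 peaks with a pileup of 7 to 9, at 1 peak at 10 to 14, at 57 at 15 to 49 and at 40 of the 42 at 100 or more. Its absence among the lowest peaks follows from the q cutoff, which so few fragments over such a background cannot pass. The lowest pileup among members with high IgG background was 13. Spearman's correlation of pileup with length across members was 0.211 (n = 3335), and 0.175 over the 3186 members without high IgG background. Both measures come from the same fragments, so these values describe the list and carry no test.

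The distal complexes near ADAM33 and VTG2, the strongest by −log10 q and by fold enrichment alike, were single sites of high enrichment. By −log10 q the first was chr4:89536778-89536932, 54757 bp from the TSS of ADAM33, which encodes a membrane metalloprotease, with a pileup of 222 at the background floor. The next was chr8:16880404-16880596, 11361 bp from VTG2, which encodes a vitellogenin precursor of egg yolk, where 172 fragments stood over a background of 2.83, a 45.2-fold enrichment with a −log10 q of 230. Both stood on low IgG background, unlike the other 3 highest by −log10 q. The peak chr3:69988292-69988410, 92448 bp from ENSGALG00000053213, reached 237 fragments over a background of 27.9, an 8.22-fold enrichment. The peak chr2:57060696-57060852, 10017 bp from ENSGALG00000054175, reached 197 fragments at 10.0-fold enrichment. The peak chr1:87410979-87411515, 64987 bp from ENSGALG00000047888, reached 194 fragments at 9.22-fold enrichment.

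By fold enrichment, ADAM33 (97.1) and VTG2 were followed by 3 other peaks. The peak chr10:3263808-3263916, 51066 bp from LINGO1, which encodes a neuronal membrane protein with leucine-rich repeats, was 17.2-fold enriched, with 65 fragments over a background of 2.83. The peak chr3:30244728-30244957, 25000 bp from CCDC167, was 13.6-fold enriched, with 147 fragments over a background of 9.90. The peak chr9:14989154-14989371, 28626 bp from MASP1, which encodes a protease of the lectin pathway of complement, was 13.2-fold enriched, with 45 fragments over a background of 2.48. Of these 3, CCDC167 alone had high IgG background. In all, 9 members reached a fold enrichment of 10.

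Height alone gave another order. The tallest member, chr2:31157451-31157588 at 10643 bp from MALSU1, which encodes an assembly factor of mitochondrial ribosomes, counted 1772 fragments, but its background was 1274, which leaves a fold enrichment of 1.39. The 5 longest members all had high IgG background. Of these, 3 lay side by side near ENSGALG00000047993 on chromosome 3 with lengths of 949, 884 and 850 bp and fold enrichments of 1.62, 1.93 and 1.78. The other 2 were chr5:6512847-6513603 near ENSGALG00000052968, 757 bp long with a fold enrichment of 1.90, and chr1:88477873-88478624 near ENSGALG00000054689, 752 bp long with a fold enrichment of 2.44. The longest distal complexes were thus wide stretches at which IgG also gave many fragments.

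Distal peaks were fewer at larger distances from the TSS, while the median strength was similar throughout. The median distance was 32531 bp (95% confidence interval 31490 to 33775), with quartiles of 18761.5 and 56776 bp and a range of 10002 to 99992 bp. Counts in windows of 10 kb went from 910 peaks at 10 to 20 kb and 623 at 20 to 30 kb to 163 at 80 to 90 kb and 138 at 90 to 100 kb. A total of 2310 members (69.3%, 95% confidence interval 67.7 to 70.8) lay within 50 kb. The median pileup was 9 in each of the 9 windows, the median length lay between 130.5 and 138 bp, and the median fold enrichment between 3.92 and 4.14. The share with a pileup of 10 or more ran from 35.8% (95% confidence interval 32.1 to 39.6) at 20 to 30 kb to 46.0% (95% confidence interval 38.5 to 53.7) at 80 to 90 kb. Spearman's correlation of distance across members was 0.0240 with pileup, 0.0218 with length and −0.00559 with fold enrichment. How much of the difference in numbers follows from the spacing of genes was not tested.

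**Figure D2:**
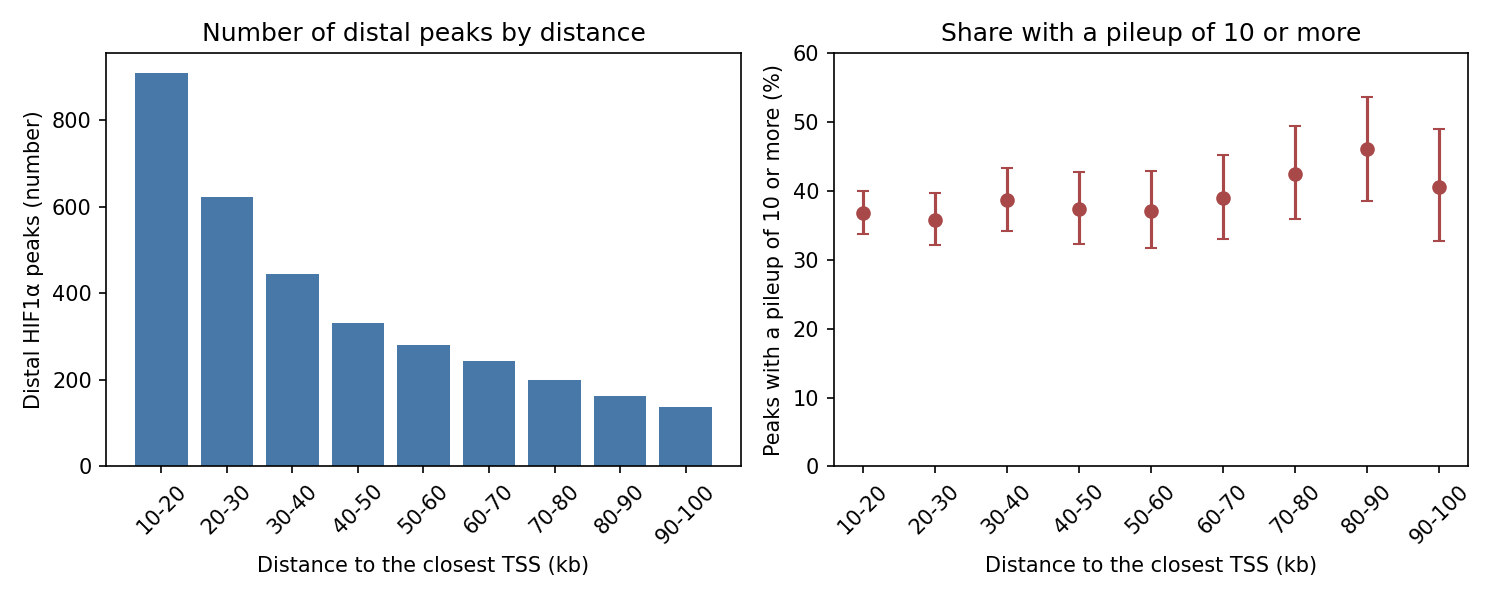
Number of distal HIF1α peaks (left) and percent of them with a pileup of 10 or more (right, bars are Wilson 95% confidence intervals) in windows of 10 kb of distance to the closest TSS. Numbers fall from 910 to 138 while the share stays between 35.8% and 46.0%.

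The peaks at the limits of the rule were like their neighbours on the other side. Just inside the lower limit lay a peak at 10002 bp from SYT9 with a pileup of 8 and one at 10005 bp from ENSGALG00000020788 with a pileup of 11. Just outside it lay peaks at 9976 bp from RHEB and at 9970 bp from RAB11A, with pileups of 10 and 12. At the upper limit, the peaks at 99908 bp from ENSGALG00000027894 and at 99992 bp from CTNNA2 had pileups of 9 and 10, and those at 100049 bp from KCNK9 and at 100095 bp from CACNA1C had 9 and 8. Fold enrichments of these 8 peaks ranged from 3.25 to 5.22.

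Distal complexes were compared with promoter peaks (up to 3 kb from a TSS, 655 peaks), near-gene peaks (over 3 to 10 kb, 1004 peaks) and peaks over 100 kb from any TSS (1147 peaks) on the same chromosomes, and with peaks at distal range on the numbered chromosomes from 11 upward (892 peaks). For each class 4 shares were compared by two-sided Fisher's exact test, giving 16 tests with Benjamini-Hochberg adjustment, of which 7 had an adjusted p under 0.05. Odds ratios are for distal peaks on chromosomes 1 to 10 against the other class. For the share with another listed peak within 1 kb, both peaks of a pair are usually counted, though they are not independent. The intervals of that share are therefore likely too narrow and its p-values too small.

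Against promoter peaks, distal peaks were less often tall and less often accompanied. The share with a pileup of 10 or more was 38.1% at distal and 44.1% at promoter peaks (odds ratio 0.778, 95% confidence interval 0.655 to 0.925, adjusted p = 0.00877, Fisher's exact test). This call was lost among peaks of −log10 q 2 or more (odds ratio 0.839, adjusted p = 0.276, Fisher's exact test). That limit acts on pileup itself, since peaks of 7 or 8 fragments at the background floor fall below it, and it leaves fewer peaks. Another listed peak lay within 1 kb of 116 distal peaks (3.48%, 95% confidence interval 2.91 to 4.16, beside 5.53% of all listed peaks) and of 6.72% of promoter peaks (odds ratio 0.501, 95% confidence interval 0.347 to 0.733, adjusted p = 9.15e-04, Fisher's exact test). Among peaks of −log10 q 2 or more, that odds ratio was 0.584 with an adjusted p of 0.0679. The share longer than 150 bp was 34.7% against 38.9% (odds ratio 0.833, 95% confidence interval 0.699 to 0.995, adjusted p = 0.0797, Fisher's exact test) and did not pass, although it did among peaks of −log10 q 2 or more (odds ratio 0.674, adjusted p = 0.00254). High IgG background was found at 5.04% of promoter peaks, and the odds ratio of 0.882 had an interval of 0.595 to 1.34.

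Against near-gene peaks no difference passed the test. The odds ratio was 1.10 (95% confidence interval 0.947 to 1.28) for a pileup of 10 or more, 1.29 (0.884 to 1.94) for high IgG background, 1.02 (0.876 to 1.19) for length and 1.13 (0.750 to 1.75) for a neighbour within 1 kb. Against peaks over 100 kb from a TSS, high IgG background was less frequent among distal peaks, with 4.47% against 7.06% (odds ratio 0.616, 95% confidence interval 0.462 to 0.825, adjusted p = 0.00221, Fisher's exact test). Among peaks with a fold enrichment of at least 3 the odds ratio was 0.549 with an adjusted p of 0.0880 (Fisher's exact test). That limit itself removes many peaks of high IgG background. Pileup, length and neighbours gave odds ratios of 0.958 (0.833 to 1.10), 0.906 (0.786 to 1.04) and 1.02 (0.702 to 1.52) against that class, none of which passed.

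The largest differences were from peaks at the same distances on the smaller chromosomes. High IgG background was found at 20.9% of those peaks against 4.47% (odds ratio 0.178, 95% confidence interval 0.140 to 0.225, adjusted p = 1.98e-46, Fisher's exact test). A neighbour within 1 kb was found at 14.7% against 3.48% (odds ratio 0.209, 95% confidence interval 0.160 to 0.274, adjusted p = 2.26e-29, Fisher's exact test). Without peaks of high IgG background and with neighbours counted anew, the last odds ratio was 0.532 (adjusted p = 0.0158, Fisher's exact test). The share with a pileup of 10 or more was 48.5% on the smaller chromosomes (odds ratio 0.651, 95% confidence interval 0.560 to 0.758, adjusted p = 1.01e-07, Fisher's exact test), and the share over 150 bp was 44.6% (odds ratio 0.659, 95% confidence interval 0.566 to 0.769, adjusted p = 2.63e-07, Fisher's exact test). Without peaks of high IgG background these odds ratios were 1.01 and 0.913, and neither passed. Among peaks with a fold enrichment of at least 3, of these 4 differences from the smaller chromosomes only that in neighbours passed. That limit itself removes many peaks of high IgG background, whose median fold enrichment among members was 2.31, so it is not an independent check.

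**Figure D3:**
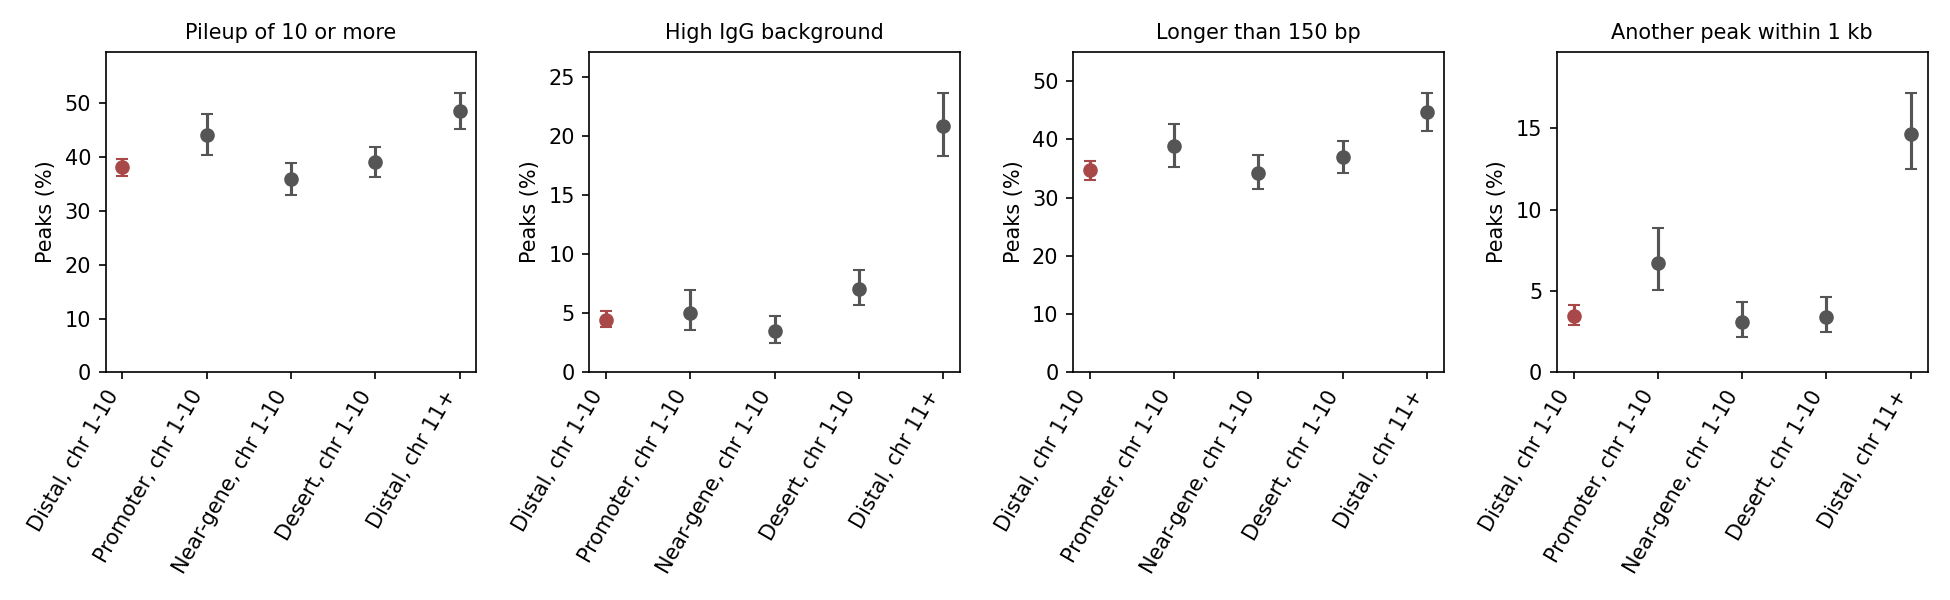
Percent of peaks with a pileup of 10 or more, with high IgG background, longer than 150 bp and with another peak within 1 kb, for distal peaks on chromosomes 1 to 10 (red) and the 4 other classes (grey), where bars are Wilson 95% confidence intervals. Distal peaks on chromosomes 11 and above stand apart at 20.9% with high IgG background against 4.47%.

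Along the genome, the 3335 members made 4.41 peaks per Mb over 757 Mb. Density was lowest on chromosome 9 with 3.92 per Mb (94 peaks, Poisson 95% confidence interval 3.17 to 4.80) and highest on chromosome 10 with 5.80 per Mb (121 peaks, 4.81 to 6.93). Chromosome 10 stayed at 5.70 per Mb without high IgG background. The largest chromosome, number 1, held 812 members at 4.11 per Mb, and chromosome 2 held 703 at 4.70 per Mb. The distal share of a chromosome's peaks was highest on chromosome 2 with 62.3% (95% confidence interval 59.5 to 65.1) and lowest on chromosome 4 with 48.6% (45.1 to 52.2). Chromosome 1 held 57 of the members with high IgG background (7.02% of its members) and chromosome 4 only 4 (1.08%). The median pileup was 9 on each of the 10 chromosomes and the median length lay between 129 and 144 bp, so no chromosome stood apart in the height of its typical member.

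Neighbouring members were usually far apart. The 3325 gaps between successive distal peaks had a median of 135806 bp (95% confidence interval 128169 to 142552), with quartiles of 43643 and 314941 bp. Gaps under 1 kb numbered 61 (1.83%), gaps of 1 to 10 kb 239 (7.19%), of 10 to 100 kb 1059 (31.8%), of 100 kb to 1 Mb 1900 (57.1%) and of 1 Mb or more 66 (1.98%). When all listed peaks were counted, the nearest peak to a member lay at a median of 40187 bp (95% confidence interval 37467 to 41901). The longest gap ran on chromosome 6 from 5332741, near RASGEF1A, to 8361435, near ENSGALG00000002892. The next 2 were on chromosome 4, from 61583207 near MTNR1A to 63815981 near SGCZ, and from 17993070 near ENSGALG00000009128 to 20099042 near SFRP2. Whether unassembled or repeated sequence lies in these gaps was not tested.

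Because all members lie over 10 kb from a TSS, close neighbours nearly always have the same closest TSS by geometry. In 1044 gaps (31.4%) the peaks on either side had the same nearest gene symbol, with a median gap of 26920 bp, whereas the median was 228576 bp where the symbols differed. All 61 gaps under 1 kb joined peaks of the same symbol. The closest pair, 113 bp apart, lay near ATP2B1 with pileups of 102 and 66 over backgrounds of 60.1 and 33.1 fragments. The next, 114 bp apart near the microRNA gene gga-mir-1641 on chromosome 3, had pileups of 8 and 10, both at the background floor. Among members, proximity went with IgG signal. Another peak within 1 kb was found for 44 of the 149 members with high IgG background (29.5%, 95% confidence interval 22.8 to 37.3). It was found for 72 of the other 3186 (2.26%, 95% confidence interval 1.80 to 2.84). Both peaks of a pair are usually counted and several come from the same runs, so these intervals are likely too narrow. The same shares over all listed peaks are not given.

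**Figure D4:**
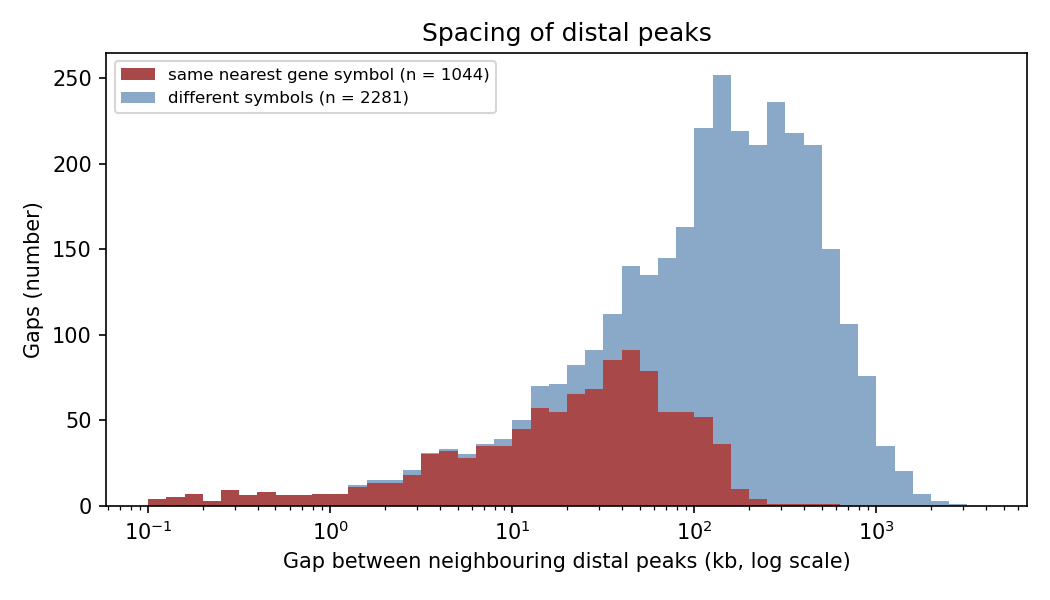
Stacked counts of the 3325 gaps between neighbouring distal peaks by size in kb on a log axis, split by whether the peaks share their nearest gene symbol (red, 1044) or not (blue, 2281). Gaps under 1 kb are all red and those between different genes are mostly over 100 kb.

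Runs of successive members less than 10 kb apart numbered 240 and held 540 peaks (16.2%), most of them pairs. A run of 4 or more peaks was found 10 times, and in 7 of these every peak had high IgG background. The largest was 8 peaks in chr5:17060267-17075250, 13830 to 28681 bp from LPXN, which encodes the focal adhesion adaptor leupaxin, with pileups of 55 to 260 over backgrounds of 21.9 to 165 and fold enrichments of 1.41 to 2.44. A run of 7 in chr1:90752978-90765606 near MGAT1, which encodes the enzyme that starts complex N-glycans, had pileups of 73 to 715 and fold enrichments of 1.29 to 2.02. Runs were counted over members only, and the lower distance limit cuts this one. A listed MGAT1 peak at 9827 bp ended 338 bp before it, with 434 fragments over a background of 236. A run of 6 in chr1:43517964-43522670 near ATP2B1, which encodes a calcium pump of the plasma membrane, had pileups of 66 to 210 and fold enrichments of 1.49 to 2.08. All 21 peaks of these 3 runs had high IgG background.

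The next largest run differed from these 3. Its 5 peaks in chr2:149633105-149643656 near ENSGALG00000049689 had pileups of 9 to 13, fold enrichments of 2.87 to 6.09 and lengths of 149 to 565 bp, none with high IgG background. A run of 4 in chr1:138152-144423 near ENSGALG00000046962 had pileups of 27 to 91 and high IgG background throughout. The other run of 4 or more without any high IgG background lay near MBIP. Runs of tall peaks with high IgG background and runs of low peaks without it were therefore both present, at different loci. The run of 4 near PLOD2 held both kinds, with high IgG background at 3 of its peaks.

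The members were nearest to 2242 gene symbols. A single distal peak was found for 1539 symbols, 2 or more for 703 (31.4%), 3 or more for 212, 4 or more for 73 and 5 or more for 25. The 703 symbols with several peaks held 1796 members (53.9%), and 642 of the 703 had no peak with high IgG background while 13 had no other kind. With peaks up to 50 kb only, 372 symbols had 2 or more. Of the 2242 symbols, 162 (7.23%) also had a promoter peak, 288 had a near-gene peak and 1520 (67.8%) had no listed peak other than distal ones on these chromosomes. A matching share of symbols with peaks of a single class is not given for the other classes. The 67.8% is therefore not shown to be particular to symbols with distal peaks. Among all 3445 symbols listed on chromosomes 1 to 10, 17.6% had a promoter peak and 26.5% a near-gene peak, a set that includes symbols listed through such peaks alone, so the shares are given without a test.

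What stood for a gene varied. Gene names made up 1605 symbols with 2299 peaks (68.9%), of which 1533 matched a current name in the RefSeq table of GRCg7b, 1565 (97.5%) did when older names were included, and 1564 were protein coding there. Ensembl identifiers without a name stood at 585 members (17.5%), microRNA genes at 127 (3.81%), names of RNA families at 110 (3.30%) and several symbols joined together at 214 (6.42%). A family name is shared by many loci, so the 49 peaks of RF02271 lay on 8 chromosomes and the 21 of RF00026 on 4. Counts of peaks per symbol for these families are not counts per gene.

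For 666 transcripts that were nearest to 2 or more members, the deposited distances fixed the position of the TSS and thereby the side on which each peak lay. Members lay on both sides of the TSS at 189 transcripts (28.4%, 95% confidence interval 25.1 to 31.9) and on 1 side at 477. The stretch between the first and the last distal peak of these transcripts had a median of 34207.5 bp, with quartiles of 13793.8 and 61616.8 bp. The strand of each gene, and hence whether a side is upstream or inside the gene, was not analysed here.

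Among named genes on 1 chromosome, LPXN and ATP2B1 had the most distal peaks, 9 each. At LPXN the ninth peak lay on the other side of the TSS at 14013 bp with 11 fragments over a background of 1.77, a 4.33-fold enrichment. The remaining ATP2B1 peaks, at 50744, 71439 and 90853 bp, had pileups of 7, 9 and 12 and no high IgG background. MGAT1 had 7 distal peaks, all with high IgG background, and its symbol was also nearest to 3 promoter peaks, 4 near-gene peaks and 14 peaks over 100 kb away. Without high IgG background, LPXN kept 1 distal peak, ATP2B1 3 and MGAT1 0, and the numbers were the same among peaks with a fold enrichment of at least 3.

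LDLRAD4, which encodes a membrane protein that restrains TGF-β signalling in human cells, had 6 distal peaks. One of them, at 25101 bp, was 5.12-fold enriched with 82 fragments over a background of 15.2, and the others had pileups of 7 to 10. The joined symbol of FAM189A1 and TJP1, of which TJP1 encodes the tight junction protein ZO-1, had 6 peaks at 33131 to 67068 bp with pileups of 8 to 13. MBIP, which encodes a subunit of a histone acetyltransferase complex, had 6 peaks at 19998 to 45017 bp with pileups of 7 to 11, of which 4 formed a run on one side of the TSS. None of the FAM189A1 and TJP1 or MBIP peaks had high IgG background.

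DCTD, which encodes the dCMP deaminase of thymidylate synthesis, had 5 distal peaks on one side of its TSS. Their pileups were 9, 10, 11, 9 and 15 at 23526, 33714, 38860, 51038 and 90530 bp, so the most distant was the tallest, at 6.96-fold enrichment (−log10 q of 7.73). CAMK1D, which encodes a calcium/calmodulin-dependent kinase, had 5 peaks with pileups of 8 to 14, the tallest at 29149 bp with a fold enrichment of 6.22. ADGRL4, which encodes an adhesion receptor known from endothelium, had 5 peaks on both sides of its TSS at 41623 to 92782 bp with pileups of 8 to 13. PTBP2, which encodes a regulator of neuronal splicing, had 5 peaks between 12446 and 99591 bp with pileups of 7 to 11. These 4 genes had no member with high IgG background and no promoter or near-gene peak. At a −log10 q from 2 upward their distal peaks numbered 3 for DCTD, 4 for CAMK1D, 3 for ADGRL4 and 3 for PTBP2.

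Symbols that combined a promoter peak with the most distal peaks were, after MGAT1, ARHGAP6, ATRNL1, GALNTL6 and GATB with 4 distal peaks each. Most of these were weak, since at a −log10 q from 2 upward ARHGAP6 kept 2 and each of the other 3 kept 1, and from 3 upward the 4 genes had 0. ARHGAP6 had distal pileups of 9, 7, 8 and 9 and a promoter peak of 7 fragments at 613 bp. Its near-gene peak at 3457 bp was taller, with a pileup of 12. ATRNL1 had distal pileups of 7, 9, 9 and 8 and a promoter peak of 11 at 816 bp. GALNTL6, of the family of enzymes that start O-glycans, had distal pileups of 8, 9, 8 and 11 and a promoter peak of 12 at 140 bp. GATB, which encodes a subunit of a mitochondrial amidotransferase, had distal pileups of 9, 10, 8 and 7 and a promoter peak of 7 at 2335 bp. In ATRNL1 and GALNTL6 the promoter peak was the tallest of the gene up to 100 kb by 1 or 2 fragments, a difference that counting error alone can give.

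**Figure D5:**
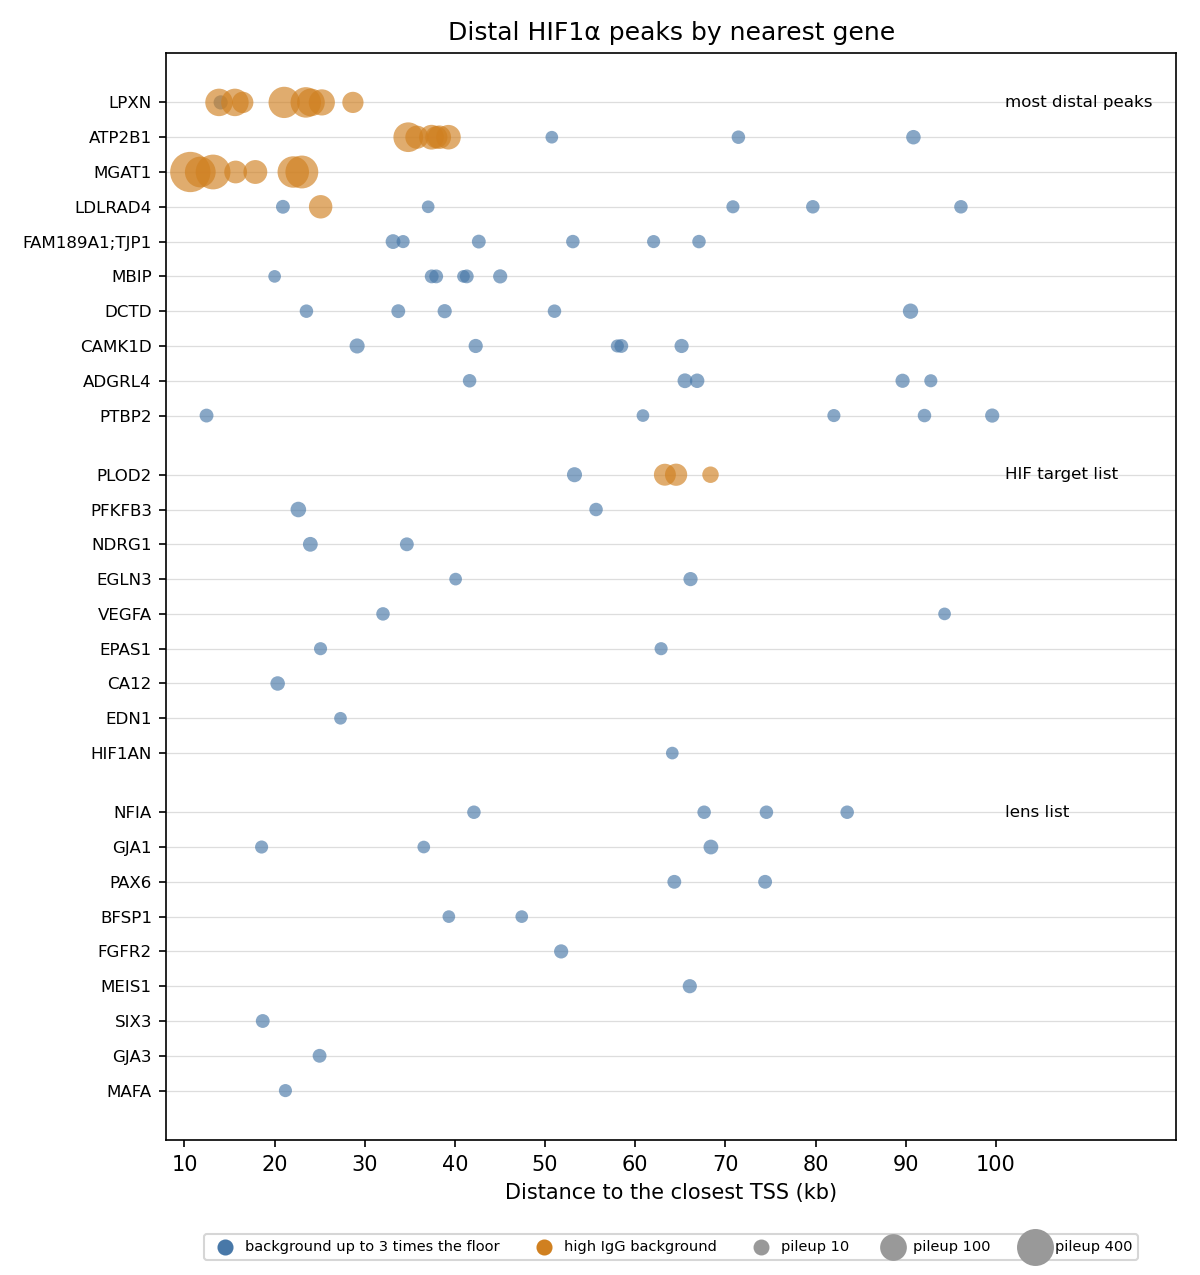
Distance to the closest TSS in kb of each distal peak of the 10 named genes with the most members and of the genes of the HIF target and lens lists, where circles grow with pileup and orange marks high IgG background. Large orange circles crowd at LPXN, ATP2B1 and MGAT1, whereas peaks of HIF target and lens genes other than PLOD2 are small and blue.

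Of 14357 protein-coding genes with a symbol, 1688 (11.8%) were nearest to a distal peak, with a median of 1 such peak and 524 (31.0%) with 2 or more. The 5 gene lists examined were read against that share. Members nearest to an Ensembl identifier without a name (585, 17.5%) could not count towards it by symbol. The share may therefore be too low beside lists of named genes. A gene in a wide intergenic space can collect more distal peaks than one among close neighbours, gene spacing was not taken into account, and no test was made of the lists.

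Among genes of the HIF target and hypoxia response list, 9 of 57 (15.8%, 95% confidence interval 8.54 to 27.4) had a distal peak, with a median of 2 and 6 genes with 2 or more. PLOD2, which encodes a collagen lysyl hydroxylase, had 4 at 53259 to 68345 bp, of which 3 had high IgG background with pileups of 20, 66 and 63 and the remaining one a pileup of 14. PFKFB3, which encodes the enzyme that sets the level of the glycolytic activator fructose 2,6-bisphosphate, had a peak at 22629 bp with 16 fragments at 6.45-fold enrichment (−log10 q of 7.31), and another at 55651 bp with a pileup of 9. Its promoter peaks at 381 and 1002 bp had pileups of 16 and 17, so the nearer distal peak was as tall as these. NDRG1, a stress-responsive gene, had peaks of 13 and 10 fragments at 23958 and 34663 bp, the second of them 603 bp long.

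The list also held components of the pathway itself. EGLN3, which encodes one of the prolyl hydroxylases inhibited by DMOG, had distal peaks at 40074 and 66129 bp with pileups of 7 and 11, beside a peak over its TSS with a pileup of 32 and a background of 7.43. EPAS1, which encodes the alpha subunit of another HIF, had peaks at 25090 and 62866 bp, both 8 fragments high at 3.73-fold enrichment. HIF1AN, which encodes the asparaginyl hydroxylase that inhibits HIF, had 1 distal peak at 64107 bp with a pileup of 7. Its near-gene peak at 4798 bp had a pileup of 9. Apart from the peak at the EGLN3 start site, the peaks of these 3 genes had pileups of 7 to 11.

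Among secreted and surface products of the same list, VEGFA, the angiogenic growth factor, had peaks at 32018 and 94306 bp with pileups of 9 and 7 and a near-gene peak at 4963 bp with a pileup of 10. EDN1, which encodes a vasoconstrictor peptide, had 1 distal peak at 27304 bp with a pileup of 7 and a near-gene peak at 6258 bp with a pileup of 9. CA12, which encodes a membrane carbonic anhydrase, had 1 at 20334 bp, 12 fragments high at 4.16-fold enrichment. The remaining 48 genes of the list in the RefSeq table were not the nearest gene of any distal peak on chromosomes 1 to 10, and a gene on another chromosome could not be.

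The lens list gave 9 of 48 genes (18.8%, 95% confidence interval 10.2 to 31.9), with a median of 1 distal peak. NFIA, a nuclear factor I transcription factor gene, had 4 peaks at 42104 to 83504 bp, each with a pileup of 9. GJA1, which encodes a connexin of lens epithelial cells, had peaks at 18553, 36541 and 68391 bp with pileups of 8, 7 and 13, and a near-gene peak of 89 fragments over a background of 25.1 at 9167 bp. PAX6, the eye selector gene, had peaks at 64331 and 74403 bp on the same side of its TSS, both 10 fragments high at 4.79-fold enrichment, and a near-gene peak at 3340 bp that also had a pileup of 10. The PAX6 peaks were 9950 bp apart and at the background floor.

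BFSP1, which encodes the beaded filament protein filensin of fiber cells, had 2 peaks at 39322 and 47409 bp, each with a pileup of 7. FGFR2, which encodes a receptor for the fibroblast growth factors that drive fiber differentiation, had 1 peak at 51779 bp with a pileup of 11. The other genes of the list with 1 distal peak included MEIS1, with a pileup of 11 at 66047 bp, and SIX3, with a pileup of 10 at 18679 bp beside a promoter peak of 15 fragments at 222 bp. GJA3, a connexin gene of fiber cells, and the crystallin regulator MAFA completed the list with pileups of 10 and 8. No lens gene on the list had a distal peak with high IgG background or with a pileup over 13.

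Lists of developmental genes had larger shares than the HIF and lens lists in these counts. The lens list itself holds developmental regulators such as PAX6 and MEIS1, so this contrast depends on how genes were assigned to lists. A distal peak was found for 39 of 106 patterning and cell identity transcription factors (36.8%, 95% confidence interval 28.2 to 46.3), for 39 of 98 cell adhesion and axon guidance genes (39.8%, 30.7 to 49.7) and for 30 of 78 growth factor and morphogen signalling genes (38.5%, 28.4 to 49.6), beside 11.8% of protein-coding genes. Joined symbols accounted for 2 genes in each of the last 2 lists. At a −log10 q of at least 2 these counts were 25, 24 and 18. The share of all protein-coding genes at that limit is not given, and 11.8% does not apply to it. Listed peaks of any class were nearest to 65 of 106, 76 of 98 and 47 of 78 genes of the same lists. For the HIF and lens lists these numbers were 31 of 57 and 18 of 48. Peaks of any class include the distal ones. In these counts the HIF list stood closer to the transcription factor and growth factor lists than for distal peaks. The lens list stayed below all the developmental lists. Whether the larger shares of the developmental lists are particular to distal peaks was not tested. A share over all protein-coding genes is not given for peaks of any class. Genes of such developmental lists are known to lie in wide intergenic spaces. What part of their shares comes from gene spacing, or from the chromosomes on which the genes lie, was not tested.

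Among adhesion and guidance genes, CDH2, which encodes the N-cadherin of lens cells, had 5 distal peaks at 18084 to 29171 bp on both sides of its TSS, with pileups of 8 to 10. ROBO1, which encodes a receptor for Slit guidance cues, had 4 with pileups of 7, 11, 8 and 7. PLXNA4, a semaphorin co-receptor gene joined in the list with gga-mir-6621, had 4 with pileups of 7 to 10. DSCAM, an immunoglobulin superfamily adhesion gene, had 4 distal peaks with pileups of 10, 10, 9 and 7 and 2 near-gene peaks. PTPRM, which encodes a receptor tyrosine phosphatase, had 3 with pileups of 8, 9 and 10 and a promoter peak with a pileup of 8. None of these 5 genes had a distal peak with high IgG background.

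In the growth factor list, TGFBR2, which encodes the type II receptor for TGF-β, had 5 distal peaks at 34553 to 95452 bp with pileups of 7 to 10. BMP4, a ligand needed for lens induction in the mouse, had 4 at 44374 to 90671 bp with pileups of 8 to 10, of which 3 lay on one side of the TSS and 1 on the other. FZD1, a Wnt receptor gene, had 3 with pileups of 11, 7 and 7. SFRP2, which encodes a secreted modulator of Wnt signalling, had 2, one of them of 59 fragments over a background of 17.7. IGF1R, the insulin-like growth factor receptor gene joined with FAM169B, had 2 with pileups of 9 and 11. Apart from the SFRP2 peak these members were within the common range of 7 to 11 fragments.

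In the transcription factor list, SATB1, which encodes an organizer of chromatin loops in mouse thymocytes, had 4 distal peaks, with pileups of 8, 8 and 14 and of 115 over a background of 40.3. SOX4 had 3 at 21556, 60110 and 77592 bp with pileups of 9, 11 and 10. NR2F2, an orphan nuclear receptor gene, had 3 with pileups of 10, 8 and 10, all on one side of its TSS. ZFHX4, a zinc finger and homeobox gene, had 3 between 61121 and 74984 bp with pileups of 9, 10 and 8. Of these 4 genes SATB1 alone had a member with high IgG background, its peak at 78300 bp.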

How the data were processed

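Peaks of 2 HIF1α and 2 IgG CUT&RUN libraries from DMOG-treated chick lens cells were analysed as deposited. Per the study's methods and the submitters' processing notes, reads were trimmed with Trimmomatic, aligned with Bowtie2 to galGal6 (Ensembl release 96) and filtered with SAMtools to fragments under 120 bp, and peaks were called with MACS2 on pooled libraries at a q of 0.05. Software versions are not given in the sources used here. The pileup was deposited by the authors as a signal in whole fragments over the summit. Fold enrichment was deposited as a ratio, and p and q as −log10 values of the MACS2 Poisson test. The authors also gave positions, distances to the closest TSS, transcripts and symbols, in other columns of the list.

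A background was derived for every peak from pileup and fold enrichment. Recomputing the Poisson p from it gave the deposited −log10 p within 0.00165 at 3334 members. Shares carry Wilson intervals and medians binomial rank intervals, all at 95%. Because no file holds values per library, samples entered no test separately. Shares were compared by two-sided Fisher's exact tests, which were checked on simulated data, and 16 p-values were adjusted by the Benjamini-Hochberg method. Python 3.11.15, pandas 2.3.3, NumPy 2.4.6, SciPy 1.17.1, statsmodels 0.14.6 and matplotlib 3.10.9 were used. Gene names came from the RefSeq table of GRCg7b, which was used for names and gene types only.

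The members, the gene lists and the tests were chosen with earlier results of these data known. Named peaks were the top 5 by −log10 q, the top 5 by enrichment, the 5 longest and those nearest the distance limits. Named genes were the 10 symbols on 1 chromosome with most members, the 5 with a promoter peak and most members, the 5 largest runs and up to 5 members of each list, all ranked by number of distal peaks and then by highest −log10 q. The tallest peak, the closest pairs, the largest gaps and the further HIF and lens genes were added after their values were seen. Alternatives were −log10 q of at least 2 and 3, fold enrichment of at least 3, removal of peaks with high IgG background, merging of peaks within 1 kb, strata by chromosome, a neighbour limit of 5 kb, an upper distance of 50 kb, and transcripts in place of symbols. A planned comparison with open chromatin was not run, and not every gene that the rule selects is reported here. Peak sequences, motifs, exons and introns were not analysed here.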

Additional observations from a re-analysis of the deposited data

How the results depend on the processing

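Distal peaks numbered 1781 with a −log10 q from 2 upward and 824 from 3 upward, nearest to 1409 and 724 symbols. Symbols with 2 or more distal peaks numbered 274 and 77 at these limits, and 372 with an upper distance of 50 kb. Median pileup was 10 and 11, median length 139 and 148 bp, and median fold enrichment 4.35 and 4.83 at the same 2 limits. With −log10 q from 2 upward, the gene lists with a distal peak held 24 adhesion, 18 growth factor and 25 transcription factor genes. Distal peaks of single genes at the limits of 2 and 3 numbered 4 and 1 for LDLRAD4, 3 and 2 for FAM189A1 with TJP1, 4 and 3 for MBIP, 3 and 2 for PTBP2, 3 and 2 for DCTD, 4 and 3 for CAMK1D and 3 and 3 for ADGRL4.

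Of 92 alternatives run on the 16 comparisons between classes, 83 left the call unchanged. In these, comparisons that had passed kept their direction and passed again, and those that had not passed still did not. Among the latter the odds ratio crossed 1 in some alternatives. One example is pileup against peaks over 100 kb from a TSS, with 0.958 in the main comparison and 1.11 with −log10 q from 2 upward. With −log10 q from 2 upward, the odds ratio against promoter peaks was 0.839 for pileup (adjusted p = 0.276), 0.584 for neighbours (0.0679) and 0.674 for length (0.00254, now passing), all by Fisher's exact test. At a fold enrichment of at least 3 the odds ratio against chromosomes 11 and above was 0.998 for pileup, 0.698 for high IgG background and 0.898 for length, and against peaks over 100 kb from a TSS 0.549 for high IgG background, none of which passed. Without high IgG background the odds ratio against chromosomes 11 and above was 1.01 for pileup and 0.913 for length, and neither passed. Pileup against that class was the only comparison that had passed and whose odds ratio crossed 1 in an alternative. The limit on −log10 q removes peaks of low pileup, and that on fold enrichment removes many peaks of high IgG background. Neither limit is therefore independent of the measures compared. The cause of these changes was not tested. Removing the distal peaks of LPXN, MGAT1 and ATP2B1, merging peaks before the class tests and counting neighbours anew were chosen after seeing the data and changed no call.

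No paired analysis was possible because the peak list used here was called after the libraries had been pooled and gives no values by replicate, and no library was left out for that reason. The planned comparison of open chromatin between classes was not analysed here. With 7 fragments enough for a peak at the background floor, differences of 1 or 2 fragments between members are within counting error.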
